A study of Mus musculus with 25 samples.

Results

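The Dlk1-Dio3 cluster is a dense run of miRNA genes at an imprinted locus of mouse chromosome 12. Its members were taken by name from the array's list of mouse miRNAs, with every arm of the listed hairpins, which gave 92 of 1122 mouse miRNA entries from 47 hairpins. MicroRNA levels were measured on 25 one-colour Agilent arrays in total RNA from snap-frozen mammary tissue of female FVB mice, whose ages the labels do not give. Wild-type tissue was represented by 2 pools of normal mammary gland, 1 from multiparous mice (Normal 1) and 1 from nulliparous mice (Normal 2). The 7 Met tumours carried MMTV-Met, a Met receptor tyrosine kinase transgene under the mouse mammary tumour virus promoter, which is active mainly in mammary epithelium. The 8 MetTrp53 tumours were MMTV-Met;Trp53fl/+ with Cre, and the 8 Trp53 tumours were Trp53fl/+ with Cre, so that both carried 1 conditional allele of the gene for p53. The promoter that drives Cre was not given in the sources used here. Pathology was stated for 22 tumours. It was spindloid, a term for tumours of spindle-shaped cells, in 1 Met, 3 MetTrp53 and 3 Trp53 tumours, and intermediate in 1 MetTrp53 and 2 Trp53 tumours. The other 12 tumours had a carcinoma diagnosis, and MetTrp53 8 had none stated.

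At this locus the paternal chromosome expresses protein-coding genes such as Dlk1 and Rtl1, and the maternal chromosome expresses long noncoding RNAs, among them Meg3, an RNA antisense to Rtl1, Rian and Mirg. The miRNAs of the locus are mostly cut from these maternal transcripts. They fall into a proximal group nearer Meg3, which holds miR-127 and miR-434 of the antisense Rtl1 RNA, and a larger distal group around Mirg, which holds miR-379, miR-154 and miR-494. They are known for high expression in embryo, placenta and brain and for low expression in most other adult tissues.

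Mature sequences were found in RefSeq (GRCm38.p6) for 85 entries. All 85 lay on chromosome 12, between positions 109580243 and 109743784, 83 on the plus strand and 2 on the minus strand. The 9 members that were detected often enough to be tested are shown first, 5′ to 3′, since the results turn on them. The capitals mark the seed, bases 2 to 8, which pairs with target mRNAs.
miR-127-3p: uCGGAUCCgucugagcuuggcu
miR-434-3p: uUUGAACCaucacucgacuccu
miR-379-5p: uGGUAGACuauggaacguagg
miR-299b-5p: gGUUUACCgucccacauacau
miR-329-3p: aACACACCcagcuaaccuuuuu
miR-494-3p: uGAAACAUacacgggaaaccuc
miR-300-3p: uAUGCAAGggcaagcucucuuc
miR-382-5p: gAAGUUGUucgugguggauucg
miR-154-5p: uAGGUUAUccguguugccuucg
The next 2 miRNAs are shown because a probe could take them for a member listed above.
miR-299a-5p: uGGUUUACcgucccacauacau
miR-381-3p: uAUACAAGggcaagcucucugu

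No seed was shared among the 9 tested members. Over the 85 sequences there were 82 distinct seeds, and the 3 shared ones joined miR-379-3p with miR-411-3p, miR-410-5p with miR-494-5p and miR-376b-5p with miR-376c-5p, of which none was detected. The sequences of the detected members therefore gave no family of one seed, and probes of different members read different sequences. Some detected members had close relatives. The miR-299b-5p sequence, read from the minus strand at chr12:109710673-109710693, is 1 edit (a base exchanged, inserted or deleted) from miR-299a-5p, which has no entry of its own on the array, so the signal of these miRNAs cannot be told apart. miR-300-3p is 3 edits from miR-381-3p, a member that was detected on no array, and miR-376a-3p and miR-376b-3p, detected on 2 and 4 arrays, are likewise 3 edits apart. The median GC content was 47.6% in the 20 detected members with a sequence and 47.8% in the 65 that were not detected.

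A miRNA was called detected on an array where more than 50% of the spots of at least 1 of its probes were well above background. Of the 92 entries, 71 were detected on no array and 21 on at least 1, a share of 22.8% that compares with 35.4% over all mouse miRNAs. The 9 tested members, those detected in 7 or more tumours or in both pools, were 9.78% of the entries, and the corresponding share of all miRNAs was 25.2%. Only miR-494-3p was detected on all 25 arrays. In the proximal group 8 of 23 entries were detected and in the distal group 13 of 69. The 21 detected entries came from 19 hairpins, and both arms were detected for 2 of these, miR-337 and miR-434.

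**Figure D1:**
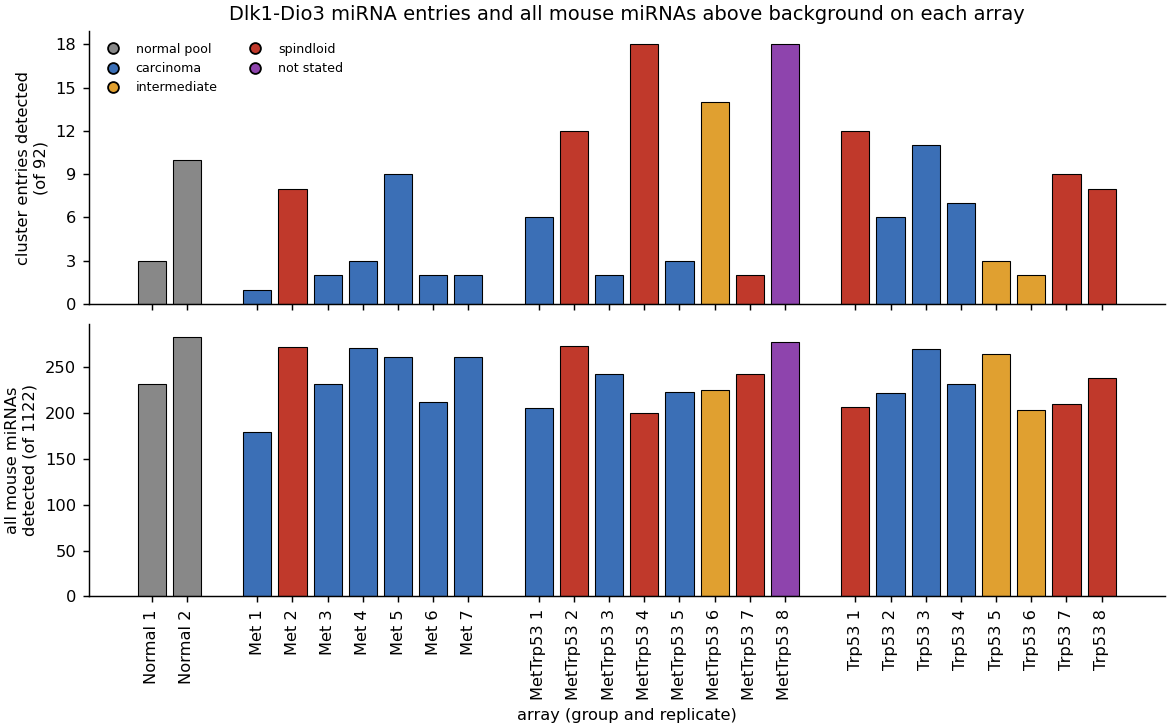
Number of the 92 cluster entries (upper panel) and of the 1122 mouse miRNAs (lower panel) detected on each array, by group and replicate, with bars coloured by the stated pathology. MetTrp53 4 and MetTrp53 8 stand highest in the upper panel with 18 entries each, while in the lower panel MetTrp53 4 is among the lowest, with 200 miRNAs.

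The number of cluster entries per array differed widely within each group. It was 3 in Normal 1 and 10 in Normal 2, and it ran from 1 to 9 in Met tumours (median 2), from 2 to 18 in MetTrp53 tumours (median 9) and from 2 to 12 in Trp53 tumours (median 7.5). The 3 genotypes overlapped, and so did the pathologies, with 2 to 18 entries in spindloid tumours (median 9), 2 to 14 in intermediate tumours (median 3) and 1 to 11 in carcinomas (median 3). Counted over a whole group, 10 entries were detected in at least 1 Met tumour, 20 in at least 1 MetTrp53 tumour, 14 in at least 1 Trp53 tumour and 10 in a normal pool, in groups of 7, 8, 8 and 2 arrays. Of the 20 in MetTrp53 tumours, MetTrp53 4 and MetTrp53 8 had 18 each. The same count over all mouse miRNAs was not made, so it is not known whether the groups differ likewise there. The median number of all mouse miRNAs detected per array was 261 in Met, 233.5 in MetTrp53 and 226.5 in Trp53 tumours and 257 in the pools.

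MetTrp53 4, a spindloid tumour, and MetTrp53 8, with no stated pathology, each had 18 entries. These arrays differed otherwise. MetTrp53 4 detected only 200 mouse miRNAs, the second lowest number among the tumours, where the median tumour detected 232. MetTrp53 8 detected 277 miRNAs, the most of any tumour, and was also the brightest tumour array, with a scaling percentile (the 75th percentile of the signal that each array was divided by) of 915 intensity units against a tumour median of 571. MetTrp53 6, an intermediate tumour, followed with 14 cluster entries. Trp53 1 and MetTrp53 2, both spindloid, had 12 each. The spindloid tumour MetTrp53 7, in contrast, had 2.

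**Figure D2:**
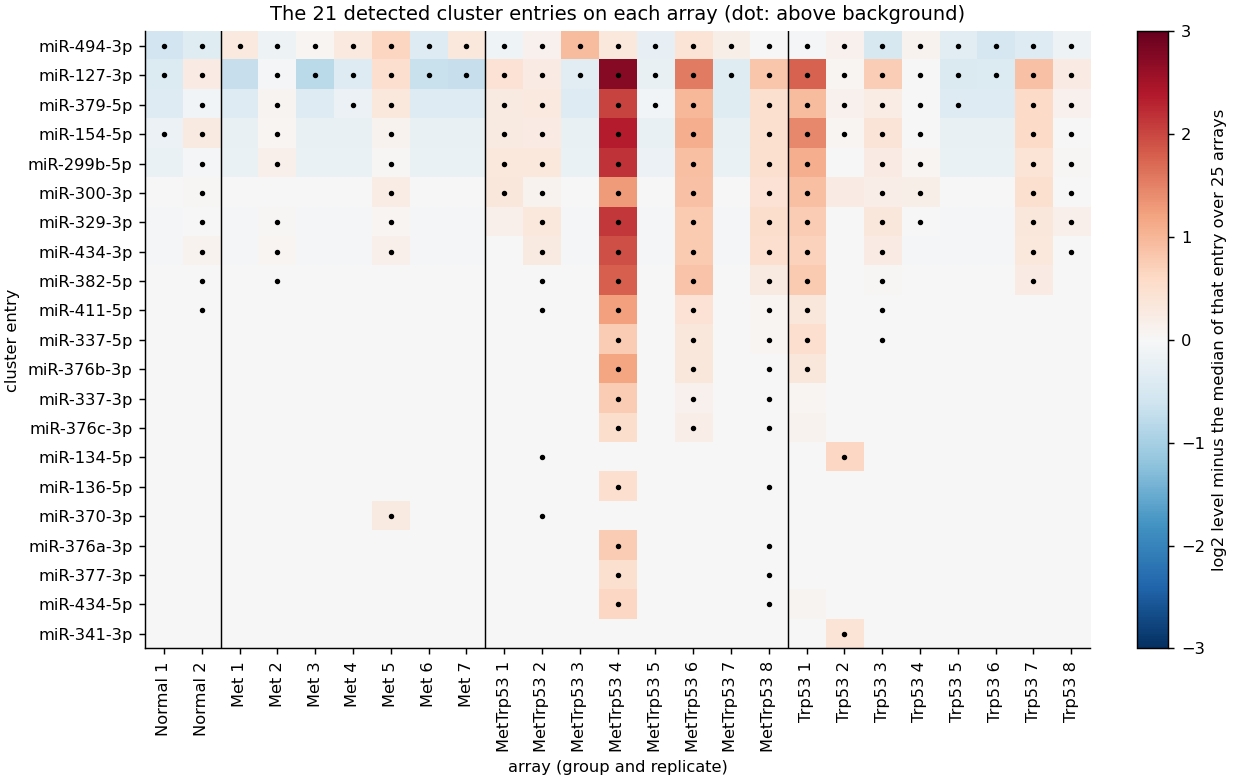
Log2 level of each of the 21 detected cluster entries (rows) on each of the 25 arrays (columns), given as the difference from that entry's own median over the arrays; a dot marks detection and vertical lines separate the groups. MetTrp53 4, MetTrp53 6 and Trp53 1 are high in most rows, whereas the top row, miR-494-3p, has its highest value in MetTrp53 3.

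miR-127-3p, a proximal member that pairs with and directs cleavage of the Rtl1 mRNA, was detected on 24 arrays, all but Met 1. Levels are log2 intensities after scaling, with a lowest possible value of 3.61. The normal pools were at 4.02 and 4.67. Met tumours ranged from 3.61 to 4.93 with a median of 3.78, MetTrp53 tumours from 4.08 to 7.16 with a median of 4.77, and Trp53 tumours from 3.99 to 6.19 with a median of 4.58. The highest Met tumour lay within the range of the other genotypes, both normal pools lay within the Met and Trp53 ranges, and Normal 1 lay just below the lowest MetTrp53 tumour. By pathology the 7 spindloid tumours ran from 4.08 to 7.16 (median 4.67), the 3 intermediate tumours were at 3.99, 4.02 and 5.99, and the 12 carcinomas ran from 3.61 to 5.16 (median 4.16). Spindloid tumours and carcinomas overlapped over most of their range, and 3 spindloid tumours, MetTrp53 4 at 7.16, Trp53 1 at 6.19 and Trp53 7 at 5.31, lay above the highest carcinoma.

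The other proximal member tested, miR-434-3p, was detected on 11 arrays. It was at 3.61 and 3.76 in the normal pools. Its tumour levels ran from 3.61 to 5.59 with a median of 3.66, and 11 of the 23 tumours were at the lowest possible value. The 3 highest tumours were MetTrp53 4 at 5.59, MetTrp53 6 at 4.44 and Trp53 1 at 4.35. The opposite arm, miR-434-5p, was detected only in MetTrp53 4 and MetTrp53 8.

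Among the distal members miR-379-5p, the first of the Mirg group, was detected on 17 arrays. It was at 3.61 and 3.91 in the normal pools, and its medians were 3.61 in Met, 4.27 in MetTrp53 and 4.12 in Trp53 tumours. Its highest levels were 4.30, 6.02 and 4.93 in these genotypes. miR-154-5p was detected on 15 arrays, including both normal pools, which were at 3.66 and 4.09. Its medians were 3.61, 4.10 and 3.86 and its highest levels 3.95, 6.18 and 5.28 in Met, MetTrp53 and Trp53 tumours. For both miRNAs the lowest tumour of each genotype was at the lowest possible value. The genotypes thus overlapped at the bottom of the scale. The highest MetTrp53 level came from 1 tumour, MetTrp53 4, for both. The next, MetTrp53 6, was at 4.99 for miR-379-5p and 4.92 for miR-154-5p, where Trp53 1 was at 4.93 and 5.28.

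**Figure D3:**
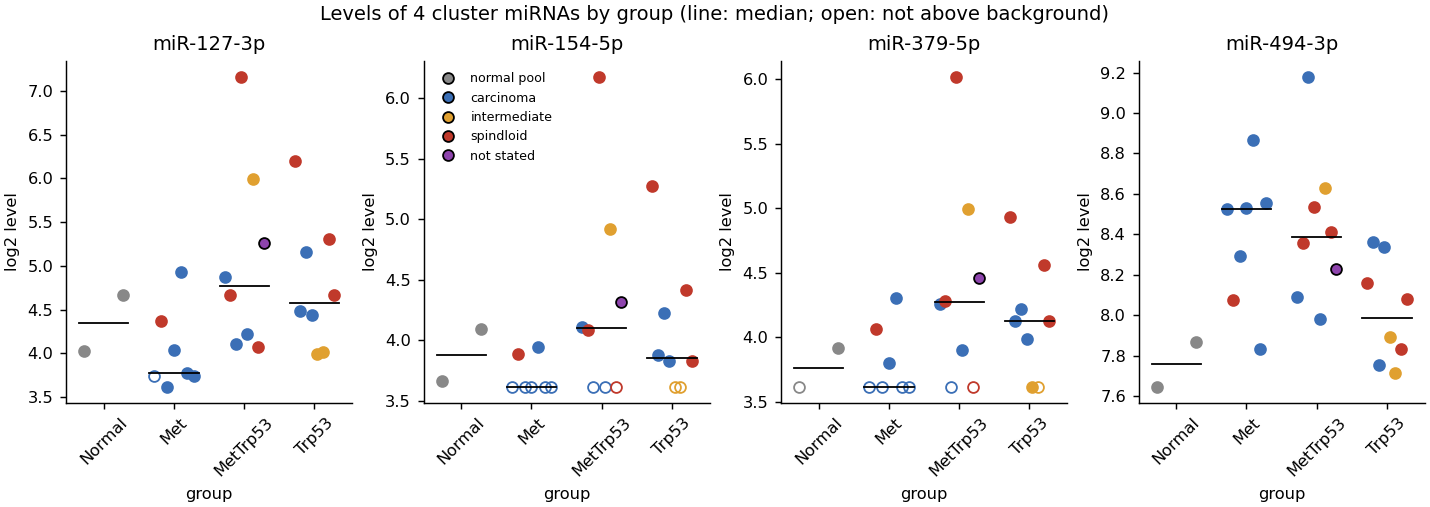
Log2 levels of miR-127-3p, miR-154-5p, miR-379-5p and miR-494-3p in each sample by group, coloured by pathology; filled points were detected, open points were not, and lines are medians. The first 3 miRNAs share their highest tumour, MetTrp53 4 (7.16, 6.18 and 6.02), and miR-494-3p has narrower ranges and its highest value, 9.18, in a carcinoma.

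In the next 4 distal members 9 to 17 of the 23 tumours were at the lowest value. miR-299b-5p was detected on 13 arrays and reached 5.96, 4.88 and 4.70 in MetTrp53 4, Trp53 1 and MetTrp53 6. miR-300-3p was detected on 12 arrays and reached 4.89, 4.52 and 4.49 in the same tumours. miR-329-3p was also detected on 12 arrays and reached 5.79, 4.44 and 4.44. miR-382-5p was detected on 9 arrays, was at the lowest value in 17 of 23 tumours and in both normal pools, and reached 5.41, 4.40 and 4.47. Across these 4 miRNAs the same 3 tumours stood highest. The normal pools were between 3.61 and 3.76 for all 4.

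For the 8 tested members other than miR-494-3p, which was set aside here after its values had been seen, MetTrp53 4 was the highest tumour in 8 of 8, and the 3 highest tumours were MetTrp53 4, MetTrp53 6 and Trp53 1 in 8 of 8. With normexp background correction MetTrp53 4 was highest in 6 of 8 and the same 3 tumours led in 1 of 8. The third highest mean over the 8 was then that of Met 1, in which none of them was detected. MetTrp53 4 exceeded the carcinoma median by 2.56 for miR-154-5p, by 2.34 for miR-299b-5p and by 1.28 for miR-300-3p on the log2 scale. The carcinoma medians of these miRNAs, 3.61, 3.62 and 3.61, were at or next to the lowest possible value, so the sizes of these differences depend on where that value was set. MetTrp53 4 was the highest tumour on both probes of each of the 8 miRNAs. For most of them, however, the weaker probe was rarely detected. That probe was detected on no array for miR-300-3p and on 1 for miR-329-3p. It was detected on 2 arrays for miR-299b-5p and miR-434-3p, on 3 for miR-379-5p and on 4 for miR-382-5p. Levels are means over both probes, so a probe at the lowest value lowers them. The mean over the 8 members was 5.88 in MetTrp53 4, 4.87 in Trp53 1 and 4.81 in MetTrp53 6, where the tumour median was 3.87 and the normal pools were at 3.67 and 3.89.

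The 12 members that were detected but not tested mostly appeared in these tumours or in MetTrp53 8. miR-411-5p was detected on 7 arrays, Normal 2 and 6 tumours, and reached 4.83 in MetTrp53 4. miR-337-5p was detected in 5 tumours and miR-376b-3p in 4, with their highest levels, 4.37 and 4.80, in MetTrp53 4. miR-376c-3p and miR-337-3p were detected in the same 3 tumours, MetTrp53 4, MetTrp53 6 and MetTrp53 8. miR-136-5p, miR-376a-3p, miR-377-3p and miR-434-5p were detected in MetTrp53 4 and MetTrp53 8 alone. On the bright array MetTrp53 8 several of these were detected and yet lay at the lowest scaled value, since detection is judged before scaling. Of the 11 members detected on 1 to 5 arrays, 8 were detected in MetTrp53 4, and miR-370-3p was the only one detected in a Met tumour. The matching share of all mouse miRNAs was not computed, so nothing particular to the cluster can be read from this.

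A further 3 of the 12 had another pattern. miR-134-5p, which in neurons limits dendritic spine size through Limk1, was detected in Trp53 2, at 4.22, and in MetTrp53 2. miR-341-3p was detected only in Trp53 2, at 4.03. miR-370-3p was detected in Met 5, at 3.89, and in MetTrp53 2. None of these was detected in MetTrp53 4.

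miR-494-3p behaved differently from the other tested members. It was at 7.65 and 7.87 in the normal pools, from 7.83 to 8.87 in Met tumours (median 8.53), from 7.98 to 9.18 in MetTrp53 tumours (median 8.39) and from 7.71 to 8.36 in Trp53 tumours (median 7.99). Normal 1 lay below every tumour, and Normal 2 lay within the range of the Met and Trp53 tumours. Its highest tumour was the carcinoma MetTrp53 3, on both of its probes, and MetTrp53 4 at 8.53 was close to the carcinoma median of 8.35. Its opposite arm, miR-494-5p, was detected on no array.

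**Figure D4:**
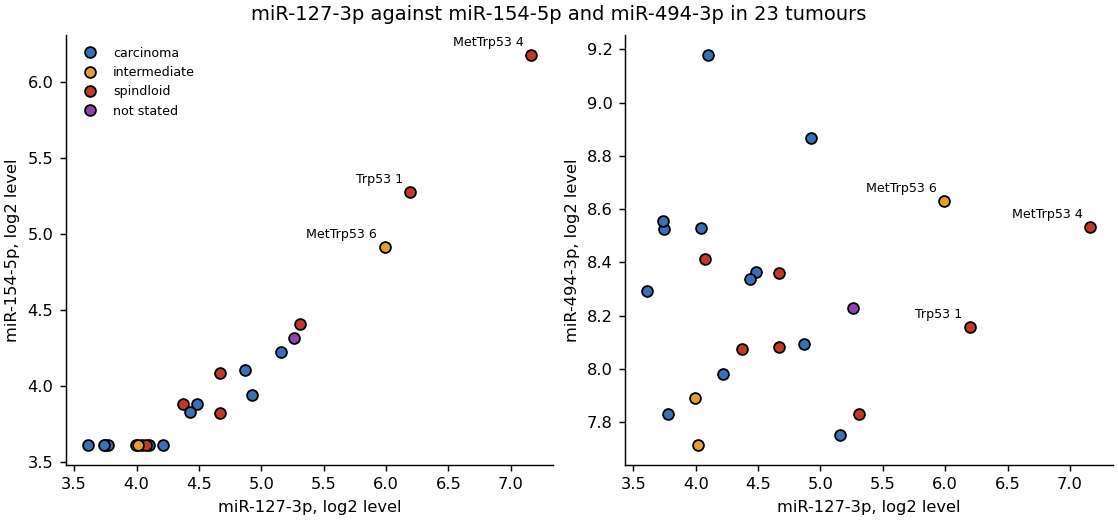
Log2 level of miR-127-3p (horizontal) against miR-154-5p (left, vertical) and miR-494-3p (right, vertical) in the 23 tumours, coloured by pathology, with the 3 tumours of the highest miR-127-3p named. The left panel rises from the lowest values to MetTrp53 4 (r = 0.97), and the right panel shows no such order (r = 0.06).

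Across the 23 tumours the levels of the 8 members varied together. Pearson correlations of their 28 pairs ran from 0.87 to 0.99 with a median of 0.95, where the median over all 39903 pairs of tested miRNAs was near 0. Without MetTrp53 4, MetTrp53 6 and Trp53 1 the median was 0.84 and the lowest value 0.60, over 20 tumours. With each slide's mean removed, the 28 correlations ran from 0.88 to 0.99. miR-494-3p correlated with the 8 at 0.06 to 0.16, and at 0.01 to 0.08 with slide means removed. These correlations are descriptions without a test, over tumours that share scaling and the lowest value, at which between 1 and 17 tumours lay for each of the 8 members.

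The 5 tested miRNAs outside the cluster whose levels were most like the mean of the 9 tested members over the 23 tumours were miR-328-3p (r = 0.76), miR-218-5p (0.73), miR-378b (0.69), miR-324-3p (0.63) and miR-378-3p (0.60). Among the tumours miR-328-3p was above the lowest value only in MetTrp53 4, at 4.79, so its correlation rests on that tumour. It was detected on 4 arrays in all and was tested because both normal pools were among them. miR-218-5p was at 6.23 in MetTrp53 4, 4.99 in MetTrp53 6 and 3.97 in Trp53 1, and its correlation without these tumours was 0.47. For miR-378b, miR-378-3p and miR-324-3p it was 0.25, 0.25 and 0.11.

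The first comparison was of tumours with normal mammary gland, as the mean of the 3 genotypes against the 2 pools. Of the 283 miRNAs tested, 42 passed an adjusted p of 0.05 (14.8%), and 0 of the 9 cluster members did. All 9 estimates were above 0, from 0.15 for miR-154-5p to 0.52 for miR-494-3p, but those of miR-127-3p, miR-154-5p and miR-434-3p were below 0 under some other scalings or in the authors' table. Their median was 0.24 against 0.19 over all tested miRNAs, and the latter was between 0.03 and 0.36 with other ways of making the values. Without MetTrp53 4 the members' median was 0.16 and that of all miRNAs 0.17. miR-494-3p differed by 0.52 (SE 0.24, adjusted p = 0.170), the only member with an unadjusted p under 0.05, and miR-127-3p by 0.27 (SE 0.57, 95% interval -0.92 to 1.46, adjusted p = 0.755). Without Normal 1 the miR-127-3p difference was -0.05, and without Normal 2 it was 0.59. The normal pools also held muscle markers. Their summed level, the log2 of the summed scaled intensities of 6 muscle miRNAs, was 13.40 to 13.91. The tumour median was 6.20, the value with every marker at its lowest. Of the other marker lists, 3 of 4 adipose and 2 of 2 endothelial markers passed as lower in tumours than in the pools. So did 2 of 6 mesenchymal and 1 of 2 neural markers. The part of these cell types in the differences was not tested.

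**Figure D5:**
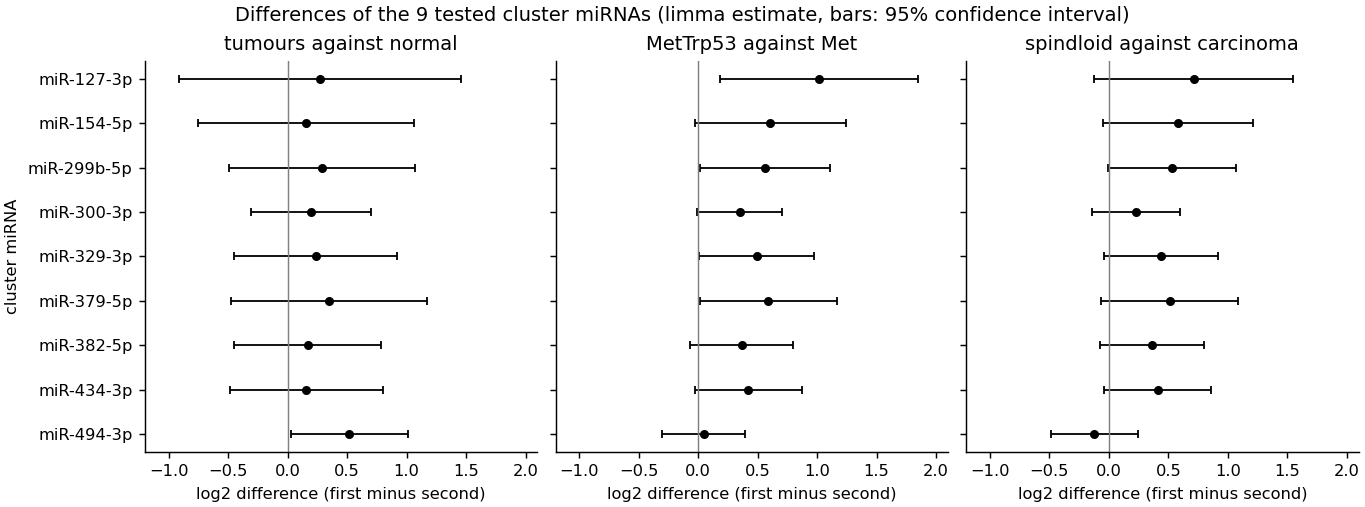
Log2 differences of the 9 tested cluster members (points, limma estimates) with 95% confidence intervals (bars) for tumours minus normal, MetTrp53 minus Met, and spindloid minus carcinoma. Estimates other than that of miR-494-3p lie above 0 in the spindloid panel, from 0.23 to 0.71, of which 7 turn below 0 with normexp background correction, and no member passed an adjusted p of 0.05 in any panel.

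Genotypes were compared in pairs, which share samples. Between Met and Trp53 tumours 36 miRNAs passed (12.7%), and 0 of 9 members. The 8 members other than miR-494-3p were estimated lower in Met, with -0.75 for miR-127-3p (SE 0.40, adjusted p = 0.230), though miR-382-5p and miR-434-3p were at 0.02 and 0.004 with pathology as a covariate, while miR-494-3p was estimated higher by 0.37 (SE 0.17, adjusted p = 0.151). Between MetTrp53 and Met tumours 6 miRNAs passed (2.12%), and 0 of 9 members. The members' median difference was 0.49, where that of all tested miRNAs was -0.01, and 4 of 9 had an unadjusted p under 0.05, as did 20.5% of all miRNAs. miR-127-3p was 2.02-fold higher in MetTrp53 by this estimate (log2 difference 1.01, SE 0.40, 95% interval 0.18 to 1.85, adjusted p = 0.140), and 0.71 (SE 0.34) without MetTrp53 4. miR-154-5p and miR-379-5p differed by 0.61 (SE 0.31) and 0.59 (SE 0.28), and by 0.34 (SE 0.23) and 0.36 (SE 0.22) without MetTrp53 4. The members' median was 0.25 without that tumour. Between MetTrp53 and Trp53 tumours 0 of 283 miRNAs passed with limma (0%), with 24 at an unadjusted p under 0.05. The 9 estimates ran from 0.13 to 0.41, the largest being miR-494-3p (SE 0.16, adjusted p = 0.317). With normexp those of miR-300-3p and miR-382-5p were -0.01, and without MetTrp53 4 the members' median was 0.03 in place of 0.26, with miR-127-3p at -0.04 and miR-154-5p at -0.05.

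Parity was not balanced over the genotypes. All 6 Met tumours with a stated parity came from multiparous mice, and 6 of 8 MetTrp53 tumours from nulliparous mice. MetTrp53 4, MetTrp53 6, MetTrp53 8 and Trp53 1 were all from nulliparous mice. Cluster entries detected ran from 2 to 18 (median 12) in the 9 nulliparous tumours and from 1 to 9 (median 2.5) in the 10 multiparous tumours. All mouse miRNAs detected ran from 200 to 277 in the nulliparous and from 179 to 272 in the multiparous tumours. With parity as a covariate the MetTrp53 minus Met difference of miR-127-3p was 0.51 (SE 0.61, adjusted p = 0.780). Among multiparous tumours alone the median of miR-127-3p was 3.89 in 6 Met, 4.49 in 2 MetTrp53 and 4.66 in 2 Trp53 tumours. No Met tumour was stated to come from a nulliparous mouse, so a difference by parity within Met could not be estimated.

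Spindloid tumours were compared with carcinomas in the 22 tumours of stated pathology, with genotype as a covariate. Of the 283 miRNAs, 23 passed (8.13%), and 0 of 9 members did. With the main values 8 members were estimated higher in spindloid tumours, with a median over the 9 of 0.44 against -0.05 over all miRNAs. The estimate was 0.71 for miR-127-3p (SE 0.40, 95% interval -0.12 to 1.55, adjusted p = 0.340), 0.58 for miR-154-5p (SE 0.30, adjusted p = 0.305) and 0.53 for miR-299b-5p (SE 0.26, adjusted p = 0.264). miR-494-3p was estimated at -0.12 (SE 0.17). Without MetTrp53 4 the differences of miR-127-3p, miR-154-5p and miR-299b-5p were 0.42 (SE 0.34), 0.32 (SE 0.23) and 0.30 (SE 0.18), and the members' median was 0.20. Within the 5 slides the miR-127-3p difference ran from 0.12 to 3.09, each value from 1 or 2 spindloid tumours and 1 to 3 carcinomas, and the largest values, 3.09 and 1.83, came from the slides of MetTrp53 4 and Trp53 1. With slide as a block it was 0.97 (SE 0.42, adjusted p = 0.224). With normexp background correction 7 of the 9 estimates turned from above to below 0, none of them past the threshold, with values between -0.02 for miR-379-5p and -0.17 for miR-300-3p; the median of all miRNAs moved from -0.05 to -0.24 under that correction.

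Markers of some other cell types varied with the cluster. In a bulk sample fewer cells of a type and less RNA per cell cannot be told apart. In spindloid tumours 9 of 12 epithelial markers tested, the miR-200 family among them, passed as lower than in carcinomas, and 1 of 6 mesenchymal markers, miR-199b-5p, passed as higher. MetTrp53 4 had the highest summed level of mesenchymal markers, 12.09, where spindloid tumours ran from 9.25 to 12.09 and carcinomas from 7.49 to 10.86. Its summed epithelial level was 7.21, near the value of 7.20 that all 12 markers at their lowest give, with 12 of 12 not detected, and carcinomas had a median of 11.47. Trp53 1 differed from the other high tumours in its muscle markers, with a sum of 11.08 against 6.20 in MetTrp53 4 and MetTrp53 6. Over the 23 tumours the mean of the 8 members correlated with the mesenchymal sum at r = 0.58 (rho = 0.69), with the endothelial sum at 0.56 (0.69), with the leukocyte sum at 0.44 (0.56) and with the epithelial sum at -0.45 (-0.48). Without MetTrp53 4 and Trp53 1 these r were 0.50, 0.53, 0.46 and -0.43. For the muscle, erythroid, neural and adipose sums r was 0.02, -0.10, -0.25 and -0.28. Without those tumours it was -0.19, 0.05, -0.37 and -0.46. The part of these cell types in the cluster's levels was not tested.

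Of 17 other entries annotated to the locus 4 were detected and 3 tested. The 3 tested ones did not vary with the 8 members. miR-1906 was detected on all arrays and was higher in tumours than in normal gland by 0.66 (SE 0.21, adjusted p = 0.0416), with 6.80 and 7.08 in the pools and 7.08 to 8.16 in tumours. That call was lost in 8 of 13 other settings, over which the adjusted p ran from 0.0200 to 0.679. It was also lost in 3 of 25 fits with an array left out, among them those without Normal 1 (adjusted p = 0.453) and without Normal 2 (adjusted p = 0.117). Its correlation with the mean of the 8 members was -0.04. miR-3072-5p and miR-3070b-3p, also tested, correlated with that mean at -0.12 and -0.03 and passed in no comparison. miR-1188-3p was detected on 1 array only and was not tested. Its highest tumour level, 4.27, was in MetTrp53 4, and its correlation with the mean of the 8 members was 0.75. Of 10 entries of other imprinted loci 2 were tested, miR-296-5p and miR-483-5p, and 0 passed in any comparison.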

How the data were processed

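The intensity values of single spots on 25 arrays were deposited as Feature Extraction 10.7.3.1 wrote them, according to their headers, with no scaling from array to array. A second table deposited by the authors holds log2 values of these spots. RMA is named for it in the submitters' processing notes, without a role, and its column medians were 1.72 to 1.91, with the centring not known. It served only as an alternative.

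The processed signal was divided by each array's 75th percentile over the 220 probes well above background on all arrays (280 to 915 intensity units), floored at 0.0212 of it, and log2 was taken. The median percentile was then added back. Spots were averaged per probe and probes per miRNA, and outlier spots were left out. Arrays detected 179 to 283 mouse miRNAs, which with the number of arrays limits the precision. No member had a saturated spot. limma 3.58.1 in R 4.3.3 (lmFit, eBayes) was fitted to 283 miRNAs, with Benjamini-Hochberg adjustment over all of them and a threshold of 0.05; the script was tested on simulated data. A member kept for testing through its high tumours alone leans towards a higher value there.

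Groups, pathology and parity came from the labels. Replicate numbers follow accession order and only name a sample. Since the titles give 2 pairs of Trp53 tumours 1 animal code each, and nothing states separate animals for the rest, p-values cover only sample-to-sample spread, which may be technical. Every tested member is named, then detected members with their arrays, then the 5 most similar non-members. Members and lists were chosen with earlier results of these data known. The array design names mm9, and coordinates are those of RefSeq on GRCm38.p6. Alternatives were normexp (offset 50, on median signals, as the mean signal was not used here), 2 other scalings, the authors' table, the brightest probe, 2 floors, 2 filters, slide or scan day as a block, eBayes with trend, shared codes averaged, parity and pathology as covariates, other classes, and each array left out.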

Additional observations from a re-analysis of the deposited data

Results flagged for a closer look

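The levels of the 9 tested members and the number of members detected were examined in Met, MetTrp53, Trp53 and spindloid tumours, 40 sets in all. In 7 of them the highest tumour lay far from the others. For normally spread values chance gives about 1 in 20 for a single set. That rate does not hold where many tumours tie at the lowest value. The sets are not independent, since the members vary together and spindloid tumours are also in their genotype's set, so these numbers are not a test. MetTrp53 4 stood apart among the 8 MetTrp53 tumours for miR-299b-5p at 5.963, for miR-329-3p at 5.787 and for miR-434-3p at 5.594, where the next tumours were at 4.70, 4.44 and 4.44. It also stood apart among the 7 spindloid tumours for miR-329-3p at 5.787 and for miR-434-3p at 5.594. Trp53 1 stood apart among the 8 Trp53 tumours for miR-382-5p at 4.398. Met 5 stood apart among the 7 Met tumours for miR-300-3p at 3.83, because the other 6 were at the lowest possible value.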

How the results depend on the processing

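In each of the 5 comparisons 0 members passed an adjusted p of 0.05 under the alternatives run, and also with each array left out in turn (range 0 to 0). With only miRNAs detected on all arrays, 1 member, miR-494-3p, was left to test. The number of detected members was 24 when over 25% of the spots sufficed and 17 when over 75% were needed, in place of 21; these alternatives were chosen after seeing the data. The count over all miRNAs changed more. It was 24 to 48 for tumours against normal (14 to 47 with an array left out, lowest without Normal 1), 7 to 49 for Met against Trp53 (19 to 60), 0 to 18 for MetTrp53 against Met (0 to 41, highest without Met 2), 0 for MetTrp53 against Trp53, and 0 to 40 for spindloid against carcinoma (4 to 29, lowest without Met 2); the cause was not tested. MetTrp53 4 kept the highest mean of the 8 members under 7 other ways of making the values. With normexp the third tumour was Met 1 in place of MetTrp53 6, and the same 3 tumours led in 1 of 8 members. The only cluster entry detected in Met 1 was miR-494-3p, so that place rests on members not detected there. Met 1 also had the lowest scaling percentile of the tumours, 280 intensity units against a tumour median of 571. Whether the normexp offset raised its values was not tested. With the percentile over all mouse probes MetTrp53 4 was highest in 5 of 8 members. The estimate for tumours against normal turned below 0 in some alternatives for miR-127-3p, miR-154-5p and miR-434-3p, and none of these passed. No paired analysis was possible because the replicate numbers follow accession order and so pair no samples. Slide and scan day entered as blocks instead, and tumours of 1 animal code were averaged in another fit. Levels near the lowest value have no order, which limits all members except miR-494-3p.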
